A study of Mus musculus with 4 samples.

Results

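Metabotropic glutamate receptors are G protein-coupled receptors that sense glutamate and act through second messengers rather than through an ion pore. Group I receptors couple to Gq, phospholipase C and calcium release from internal stores, sit mostly at the edge of the postsynaptic density and are best known in the hippocampus for a form of long-term depression. Group II and group III receptors couple to Gi/o, lower cAMP and act largely as presynaptic brakes on transmitter release. Here the 6 rows of the deposited table whose gene name was Grm2, Grm3, Grm4, Grm5, Grm7 or Grm8 were taken by name alone, out of 28193 rows in all. All 6 passed the filter on low counts and were among the 22338 genes tested.

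The libraries came from ribosome-bound RNA of dorsal hippocampus of male cFos-Cre:Ribotag mice, as the labels put it. In the methods of the study, C57BL/6J mice aged 3 to 5 months received AAV vectors in dorsal CA1, 1 with a 4-hydroxytamoxifen-dependent Cre under the Fos promoter and 1 with a Cre-dependent ribosomal protein, Rpl22, carrying an HA tag. All mice, the NSD group included, were sleep deprived for 5 h on day 0 with 4-hydroxytamoxifen given at ZT 2, so that the tagged cells of both groups were those active in that session. On day 7 the SD group was sleep deprived again for 5 h from ZT 0 and the NSD group (non-sleep deprived) was left undisturbed, and CA1 was taken at ZT 5. Each group had 2 libraries, each a pool of 5 mice, and the labels place 1 library of each group in batch 1 and 1 in batch 2. Standard deviations (s.d.) therefore describe the spread between pools. The p-values rest on that spread too, but edgeR draws each gene's variance toward a value shared with other genes. Tagging followed Fos promoter activity and not cell type, and no untagged input was analysed here, so a level is the level in the immunoprecipitate.

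The libraries held between 153511705 and 195910235 estimated counts. Summed over 9 markers, astrocyte genes reached 3187 to 3790 CPM across the libraries, and 8 interneuron markers reached 794 to 888 CPM, beside 5030 to 5378 CPM for 4 pyramidal markers, of which Camk2a was the most abundant. No marker of any list was at 0 in every library. The immunoprecipitates thus held RNA of other cell types beside that of pyramidal neurons, and a receptor's level is a sum over them. Fewer cells of a type and less RNA per cell cannot be told apart in such pooled RNA.

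The sequences shown bear on which receptor can be tied to the Homer scaffold proteins, since Homer1 was among the partner genes that differed most between groups. The Homer ligand is a short proline-rich stretch in the tail of group I receptors, and its codons were searched in frame as CCNCCNNNNNNNTTC or CCNCCNNNNNNNTTT on the coding strand of the longest coding sequence of each gene (GENCODE M39 on GRCm39). Capitals mark the matching bases.
Grm5: ctcactCCACCATCGCCCTTCagggac
Grm2: accgtgCCCCCAGACTTCTTCcaagcc
Grm7: gtggtcCCACCTGATTCCTTCcaagcc
The Grm5 match lies at chr7:87779931-87779945 on the plus strand, in a coding exon for the intracellular tail, and starts at codon 1156 of 1203. The Grm2 match (chr9:106528313-106528327, minus strand, codon 186 of 872) and the Grm7 match (chr6:110891366-110891380, plus strand, codon 200 of 922) lie in coding exons for the extracellular glutamate-binding part of the receptor, while Homer proteins are inside the cell. Grm3, Grm4 and Grm8 held no match in their longest coding sequence, and 7.12% of the 21530 coding sequences searched held one.

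Levels were compared between genes in CPM per kilobase of exon, where CPM is a count scaled to the library total with edgeR's TMM factors and exon length is that of all annotated exons merged. Grm5, the main group I receptor of CA1 pyramidal cells, stood far above the other receptors, at 45.4 and 55.0 CPM per kilobase in NSD libraries 1 and 2 and at 50.4 and 56.9 in SD libraries 1 and 2. It made up 57.2% to 62.0% of the summed level of the 6 receptors in each library, lay 5.0 times above the next receptor in mean level, and ranked at the 97.4th percentile of 15533 protein-coding genes. Grm7, the low-affinity group III receptor of presynaptic active zones, came next, at 11.3 and 11.1 CPM per kilobase in NSD and 9.57 in both SD libraries. Its 4 values lay above every value of the receptors below it.

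The next 3 receptors could not be put in order. Grm2, a presynaptic group II receptor known from dentate granule cells and their mossy fibres, ranged from 7.22 to 9.07 CPM per kilobase. Grm3, the group II receptor also found in astrocytes, ranged from 6.62 to 7.97, and Grm4, a presynaptic group III receptor, from 5.79 to 7.77. These ranges overlapped, and with the length of the longest transcript in place of the exon union the order of the 3 means turned from Grm2, Grm3, Grm4 (8.0, 7.18 and 6.83 CPM per kilobase) to Grm4, Grm3, Grm2 (9.82, 8.76 and 8.20). Grm8, a group III receptor of presynaptic terminals, was lowest under both lengths, at 1.66 to 2.15 CPM per kilobase of exon, near the 45.7th percentile of protein-coding genes.

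Set among the 16 ionotropic subunits measured in the same libraries, Grm5 was of the order of an obligatory NMDA receptor subunit. Its mean of 51.9 CPM per kilobase of exon lay beside 46.5 for Grin1, and their libraries overlapped (41.8 to 51.5 for Grin1). With the longest transcript the order of that pair turned, with 65.3 for Grm5 and 93.9 for Grin1. Gria1, an AMPA receptor subunit, had the highest mean of the ionotropic subunits at 193.6 CPM per kilobase of exon, and Grin3b the lowest at 0.0354. Libraries of Gria1 and the NMDA receptor subunit gene Grin2b overlapped, and in SD library 1 Grin2b was the higher (204.1 against 189.2). The 5 other metabotropic receptors lay between Grik3 at 17.7 and Grin2c at 1.48.

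**Figure D1:**
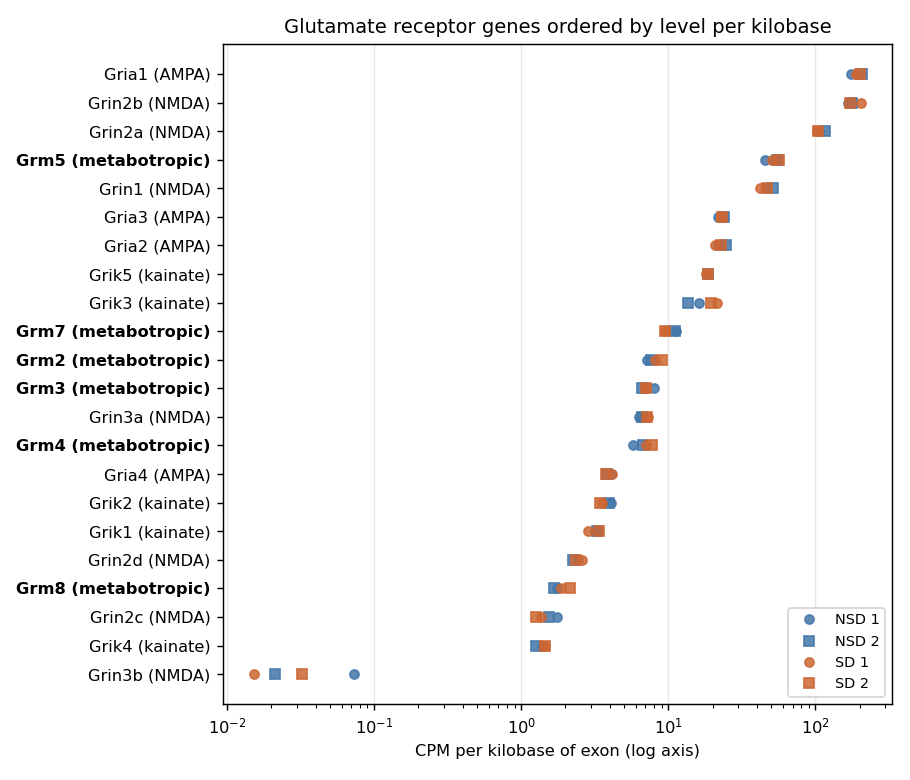
Level of the 6 metabotropic (bold) and 16 ionotropic glutamate receptor genes in CPM per kilobase of exon, on a log axis, with 1 point per library (NSD blue, SD orange, circles batch 1, squares batch 2). Grm5 sits near Grin1 at about the level of an abundant ionotropic subunit, Grm7, Grm2, Grm3 and Grm4 lie close together, and Grm8 is lowest of the 6 metabotropic receptors.

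None of the 6 receptors was called between SD and NSD. A gene was called when edgeR's quasi-likelihood test gave it an adjusted p under 0.05 and it differed by more than 1.2-fold, which held for 3.1% of all genes tested and for 1.49% of protein-coding genes. Unadjusted, Grm2, Grm4, Grm7 and Grm8 had a p under 0.05, as had 19.1% of all genes tested. Their groups did not overlap, with Grm2, Grm4 and Grm8 higher in both SD libraries and Grm7 lower, but 49.5% of all genes tested had groups that did not overlap, 22% with SD above and 27.5% with SD below. DESeq2 called 0 of the 6 as well, with 8.67% of all genes called by it.

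With the batch number as a replicate block none of the 6 was called either, at 11.5% of all genes. Under that block, and with no fold change required (added once results were known), 3 of the 6 passed an adjusted p under 0.05, namely Grm2, Grm4 and Grm7. In that setting 13.8% of all genes passed. Their changes were all smaller than 1.2-fold.

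Grm7 (ENSMUSG00000056755, chr6:110622542-111544191, plus strand) had the smallest s.d. relative to the mean of the 6 receptors within both groups. NSD libraries 1 and 2 read 66.2 and 65.5 CPM, and SD libraries 1 and 2 read 56.3 and 56.4 CPM. The SD values were the lower ones, and libraries of a group were nearly equal. The mean was 65.9 ± 0.479 CPM in NSD and 56.3 ± 0.0168 CPM in SD (s.d., n = 2 libraries), which is -0.23 on the log2 scale (standard error, s.e., 0.063, 95% interval -0.37 to -0.082, edgeR adjusted p = 0.0926). The log2 difference was -0.23 in batch 1 and -0.22 in batch 2, and with the replicate block the adjusted p was 0.0168 in edgeR, within a range of 0.0168 to 0.390 over all alternatives.

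Grm4 (ENSMUSG00000063239, chr17:27641361-27740377, minus strand), of the same group III, had values on the other side. It read 39.6 and 45.9 CPM in NSD and 48.1 and 53.1 CPM in SD. The SD values were the higher ones, although the gap between NSD library 2 and SD library 1 was smaller than the difference between the libraries of either group. The log2 fold change was 0.24 (s.e. 0.090, 95% interval 0.039 to 0.45, edgeR adjusted p = 0.181), from 42.7 ± 4.47 to 50.6 ± 3.54 CPM (s.d., n = 2). With a library left out it ran from 0.17 (without NSD library 1) to 0.36 (without NSD library 2). The batches gave log2 differences of 0.28 and 0.21, and the replicate block an adjusted p of 0.0142 in edgeR (0.0142 to 0.531 over all alternatives).

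Grm8 (ENSMUSG00000024211, chr6:27275118-28135177, minus strand), the third of the group III receptors, read 17.4 and 16.4 CPM in NSD and 18.4 and 21.3 CPM in SD. Both SD values were the higher ones, with SD library 2 set apart from the 3 others. The log2 fold change of 0.23 (s.e. 0.098, 95% interval 0.0082 to 0.45, edgeR adjusted p = 0.244) was made up of 0.081 in batch 1 and 0.37 in batch 2. With a library left out it ran from 0.13 (without SD library 2) to 0.34 (without SD library 1). It did not pass with the replicate block (edgeR adjusted p = 0.10), the lowest value among its alternatives, which reached 0.838.

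**Figure D2:**
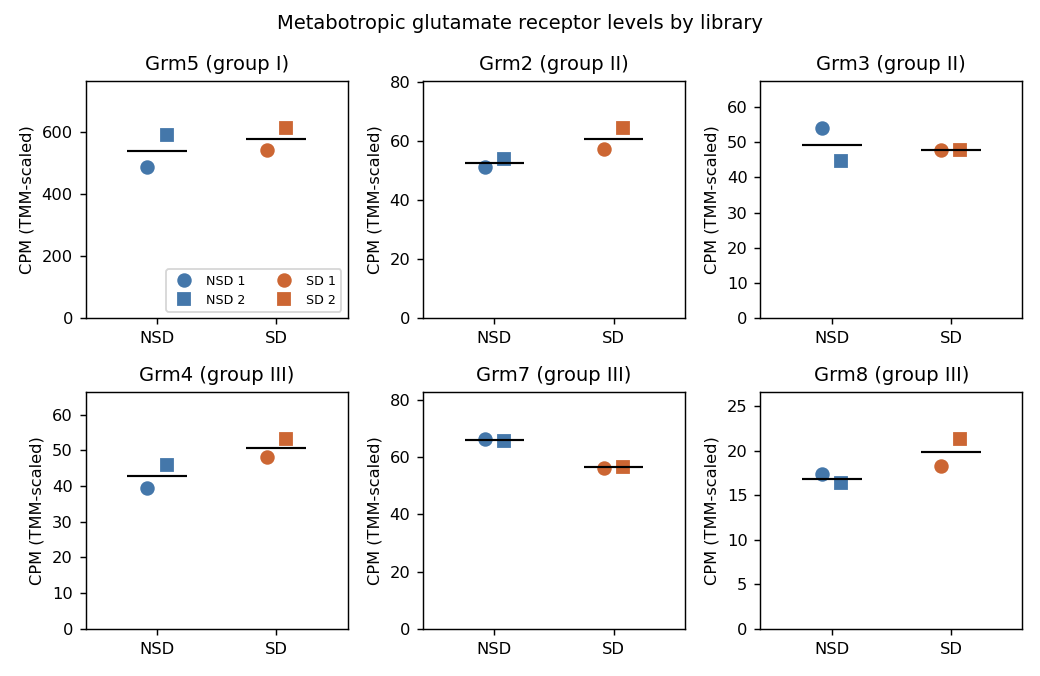
TMM-scaled CPM of each receptor by group, 1 point per library (circles batch 1, squares batch 2), with the group mean as a line and axes starting at 0. Grm7 lies lower in both SD libraries, Grm2, Grm4 and Grm8 lie higher in both, and the groups of Grm5 and Grm3 overlap.

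Among group II receptors, Grm2 (ENSMUSG00000023192, chr9:106520294-106533281, minus strand) read 51.1 and 54.0 CPM in NSD and 57.3 and 64.2 CPM in SD. The groups did not overlap, with SD library 2 highest. The log2 fold change was 0.21 (s.e. 0.077, 95% interval 0.032 to 0.39, edgeR adjusted p = 0.184), with batch differences of 0.16 and 0.25. With a library left out it ran from 0.14 (without SD library 2) to 0.29 (without SD library 1). The replicate block gave an adjusted p of 0.0303 in edgeR, against a range of 0.0303 to 0.729 over all alternatives. Grm2 is abundant in dentate granule cells, and 5 dentate markers summed to 128 and 110 CPM in NSD and to 143 and 150 CPM in SD. The 1 marker of these that was called, Pdzd2, accounted for most of that sum (log2 fold change 0.42, edgeR adjusted p = 0.0400). Its call was lost with no minimum count, with filterByExpr and with protein-coding genes only. Prox1, C1ql2 and Dsp had log2 fold changes of -0.044, 0.00061 and 0.052, and Tdo2, at 0.41 CPM or less in every library, one of -0.84 (edgeR adjusted p = 0.482). The part of dentate RNA in the Grm2 values was not tested.

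Grm3 (ENSMUSG00000003974, chr5:9535541-9775170, minus strand) read 53.9 and 44.8 CPM in NSD and 47.9 and 47.7 CPM in SD. The SD libraries lay between the NSD libraries, so the spread within NSD was wider than the difference between groups. The log2 fold change was -0.046 (s.e. 0.091, 95% interval -0.25 to 0.16, edgeR adjusted p = 0.855). It took opposite signs in the batches, -0.17 in batch 1 and 0.091 in batch 2, and turned to 0.12 without NSD library 1. Grm3 is also expressed in astrocytes, whose 9 markers summed to 3675 and 3187 CPM in NSD and to 3779 and 3790 CPM in SD. Both Grm3 and that sum were lowest in NSD library 2. Grm3 was highest in NSD library 1, however, where the sum lay below both SD libraries. Most of the sum was Slc1a2, at 2996 and 2584 CPM in NSD and 3102 and 3147 CPM in SD. Of these markers 0 were called by edgeR, 0 by DESeq2, and 1 had an unadjusted p under 0.05, where 3.1%, 8.67% and 19.1% of all genes did, and their part in the Grm3 values was not tested.

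Grm5 (ENSMUSG00000049583, chr7:87233376-87784115, plus strand) read 487 and 590 CPM in NSD and 541 and 610 CPM in SD. NSD library 2 lay above SD library 1, and in each group the library of batch 2 was the higher. The log2 fold change was 0.096 (s.e. 0.11, edgeR adjusted p = 0.739), and its 95% interval from -0.17 to 0.36 leaves room for a change past 1.2-fold upwards. The batch differences were 0.15 and 0.050. Without NSD library 1 the log2 fold change was -0.0053, so its sign rested on that library.

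The partners of these receptors were described with a list of 51 genes, all of them tested, covering scaffolds, the Gq and Gi/o arms, desensitization, trans-synaptic ligands and effectors of long-term depression. Their median log2 fold change was 0.012, beside -0.016 over all genes tested. Without the block 1 was called higher and 0 lower, where 0.77% of all genes were called higher and 2.33% lower. With the replicate block 4 were called higher and 1 lower (2.99% and 8.47% of all genes), and DESeq2 called 4 higher and 0 lower (2.95% and 5.71% of all genes). All 51 are protein-coding, and over the 15551 protein-coding genes tested the median was 0.018. Of those genes, 148 were called higher and 84 lower without the block, 587 and 512 with it, and 601 and 271 in DESeq2.

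The gene called without the block was Arc, whose protein takes part in AMPA receptor removal after group I receptor activation. Arc read 199 and 233 CPM in NSD and 386 and 426 CPM in SD, with the groups far apart (log2 fold change 0.91, s.e. 0.10, edgeR adjusted p = 0.0328). The call was lost when filterByExpr replaced the count minimum (adjusted p = 0.0628), where 1 gene in all was called. The 4 other effectors of long-term depression, Fmr1, Ptpn5, Eef2k and Map1b, were not called.

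Homer1, the scaffold that ties the Grm5 tail shown above to Shank proteins and internal calcium stores, and whose short activity-induced form breaks that tie, read 185 and 220 CPM in NSD and 260 and 280.3 CPM in SD. Each SD value exceeded each NSD value, by a log2 fold change of 0.42 (s.e. 0.098, edgeR adjusted p = 0.0610), and with the replicate block Homer1 was called (edgeR adjusted p = 0.00115, over all alternatives 0.000244 to 0.139). Counts per gene do not separate the short from the long forms. Homer2 and Homer3, which encode long forms, had log2 fold changes of 0.11 and -0.20 (s.e. 0.079 and 0.15) and were called by neither fit. With a library left out these ran from 0.069 (without NSD library 2) to 0.17 (without NSD library 1) for Homer2 and from -0.39 (without SD library 1) to -0.0098 (without SD library 2) for Homer3.

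Elfn1 and Elfn2 encode leucine-rich repeat proteins that bind group III receptors, Grm7 among them, across the synaptic cleft. Elfn1 read 77.8 and 92.5 CPM in NSD and 105 and 116 CPM in SD, all SD values above all NSD values. Its log2 fold change was 0.38 (s.e. 0.095, edgeR adjusted p = 0.0704), and it was called with the replicate block (edgeR adjusted p = 0.000695, over all alternatives 0.000695 to 0.146). Elfn2 read 498 and 459 CPM in NSD and 562 and 554 CPM in SD (log2 fold change 0.22, s.e. 0.087, edgeR adjusted p = 0.210) and was not called with the block either (edgeR adjusted p = 0.0544).

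The 2 other genes called with the block were chosen for mention after their values were seen. Grk3, a kinase of the family that desensitizes G protein-coupled receptors, had a log2 fold change of 0.28, and Rgs14, a Gi/o regulator enriched in CA2, one of -0.28, with edgeR adjusted p values of 0.00749 and 0.00565 in the fit with the block (0.0866 and 0.0583 without it).

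In the Gq arm downstream of Grm5, none of the 12 genes was called by edgeR, with or without the block, or by DESeq2 (over all genes 3.1%, 11.5% and 8.67% were), and 0 had an unadjusted p under 0.05 (19.1% of all genes). Gnaq, the G protein subunit, had a log2 fold change of -0.0013 (95% interval -0.19 to 0.19), with a sign that turned in 7 of the 10 alternatives. Plcb1, the phospholipase C isoform of hippocampal pyramidal cells, was at 0.053 (-0.14 to 0.24), with 0.0067 without SD library 2 and 0.11 without SD library 1, and Itpr1, the calcium release channel that binds Homer, at 0.067 (-0.15 to 0.29). Of the 13 genes of the Gi/o arm, among them G protein subunits and the potassium channel subunits they open, 0 were called by edgeR in either fit or by DESeq2, and 1 had an unadjusted p under 0.05, against the same shares of all genes. In lists of this size such counts do not set either arm apart from other genes.

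**Figure D3:**
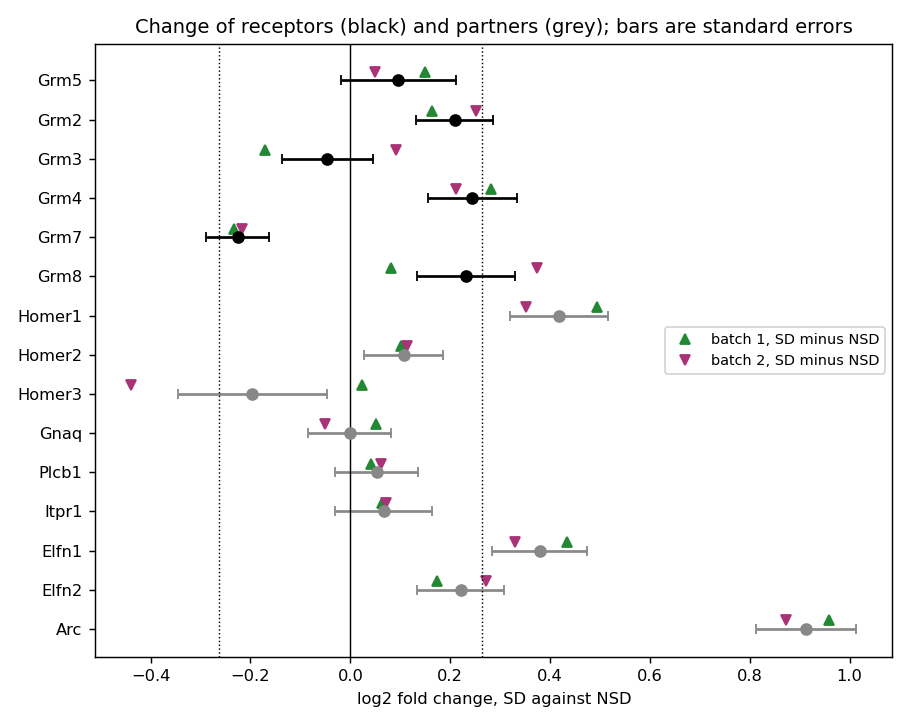
Log2 fold change of SD against NSD with its standard error for the 6 receptors (black) and 9 partner genes (grey), with the difference within each batch as triangles and a fold change of 1.2 as dotted lines. Receptor changes lie between -0.23 and 0.24, inside the dotted lines, Grm3 has batches of opposite sign, and Arc, Homer1 and Elfn1 lie further right.

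Among the 16 ionotropic subunits, 1 was called without the block, the kainate receptor subunit gene Grik3 (log2 fold change 0.46, edgeR adjusted p = 0.0479), at 3.1% of all genes. That call was lost with no minimum count, with filterByExpr, with protein-coding genes only and without NSD library 2, each of which left 0 of the 16. Their median log2 fold change was -0.014. The median of the 6 metabotropic receptors was 0.15, over values from -0.23 to 0.24.

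Some markers of CA1 pyramidal cells were lower in SD. Of 5 CA1 markers, edgeR called 0 without the block, and 3 had an unadjusted p under 0.05, beside 19.1% of all genes tested. Fibcd1, Wfs1 and Man1a had log2 fold changes of -0.35, -0.39 and -0.41 and were called with the replicate block (edgeR adjusted p = 0.00286, 0.00246 and 0.00194). That fit called 8.47% of all genes lower, and 512 of the 15551 protein-coding genes tested. DESeq2 called the same 3 (adjusted p = 0.0147, 0.0214 and 0.00651), with 5.71% of all genes, and 271 of the 15551 protein-coding genes, called lower. Mpped1, the most abundant of the list, was at 0.14, and the summed CA1 markers ran from 1295 to 1468 CPM in NSD and from 1194 to 1323 CPM in SD. Whether this has a part in the lower Grm7 values was not tested. The 8 interneuron markers, led by Gad1, summed to 857 to 888 CPM in NSD and 794 to 876 in SD. Sst among them read 120.0 and 106 CPM in NSD and 109 and 73.6 CPM in SD, so that the groups overlapped and SD library 2 was lowest. Its log2 fold change was -0.31, with -0.14 in batch 1 and -0.53 in batch 2, and it was called with the replicate block (edgeR adjusted p = 0.0118, against 0.347 without it and 0.680 in DESeq2). For Pvalb the log2 fold change was 0.26 (edgeR adjusted p = 0.255 in the fit on condition alone and 0.0751 under the block). The 5 markers of oligodendrocyte precursors, led by Olig1, summed to 103 to 117 and 108 to 119 CPM. Of the astrocyte markers Slc1a2 was the most abundant (2790 ± 291 CPM in NSD, 3125 ± 32.1 in SD, s.d., n = 2).

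The receptor loci also hold other rows of the table. In all, 10 rows overlap the span of a receptor, and 7 of these are TEC loci, a class of transcripts that Ensembl lists as still in need of experimental evidence, on the same strand as the receptor and without any exon base in common with it. They lie within introns of Grm5 (5 loci), Grm3 (1) and Grm8 (1). In 6 of the 7 both SD libraries lay lower than either NSD library. These include Gm42801, the 1 locus of the 7 that was not tested. Over the TEC loci tested, that share was 77.8%. Of the 6 that were tested, 2 were called lower without the block, where 18.5% of the 1663 TEC loci tested were, and 5 with the replicate block, where 52.6% of the TEC loci were. Their log2 fold changes ran from -3.44 to -1.50, beside a median of -1.51 over all TEC loci tested.

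The most abundant TEC locus in Grm5, Gm44846 (chr7:87768366-87771608), held 861 and 411 counts in NSD libraries 1 and 2 and 343 and 163 in SD libraries 1 and 2 (log2 fold change -1.50, s.e. 0.42, edgeR adjusted p = 0.0910, 0.000145 with the replicate block). Each SD library was below its NSD library, while NSD library 2 and SD library 1 were close. The log2 fold change ran from -0.90 without NSD library 1 to -2.18 without SD library 1. Gm44847 (chr7:87732021-87734011), also in Grm5 and named for its call, held 562 and 412 counts in NSD and 167 and 164 in SD (log2 fold change -1.75, s.e. 0.24, edgeR adjusted p = 0.0328), and the groups were well apart. Together the 5 loci held 2.26% and 1.08% as many counts as Grm5 itself in NSD, against 0.639% and 0.354% in SD.

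In Grm3, Gm42455 (chr5:9649872-9652607) held 69 and 57 counts in NSD and 6 and 7 in SD, where the Grm3 row itself held 8934, 7035, 8655 and 9017. Its log2 fold change was -3.44 (s.e. 0.55, edgeR adjusted p = 0.0363). In Grm8, Gm42801 (chr6:27441088-27443952) held 15 and 16 counts in NSD and 0 in both SD libraries. With a limit of 3 counts per library for a count of 0, it was at least 5.79-fold lower in SD. The calls of Gm44847 and Gm42455 were lost without NSD library 1 (edgeR adjusted p = 0.0629 and 0.0683) and with filterByExpr (0.0628 for both), and that of Gm42455 also with no minimum count (0.0524).

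**Figure D4:**
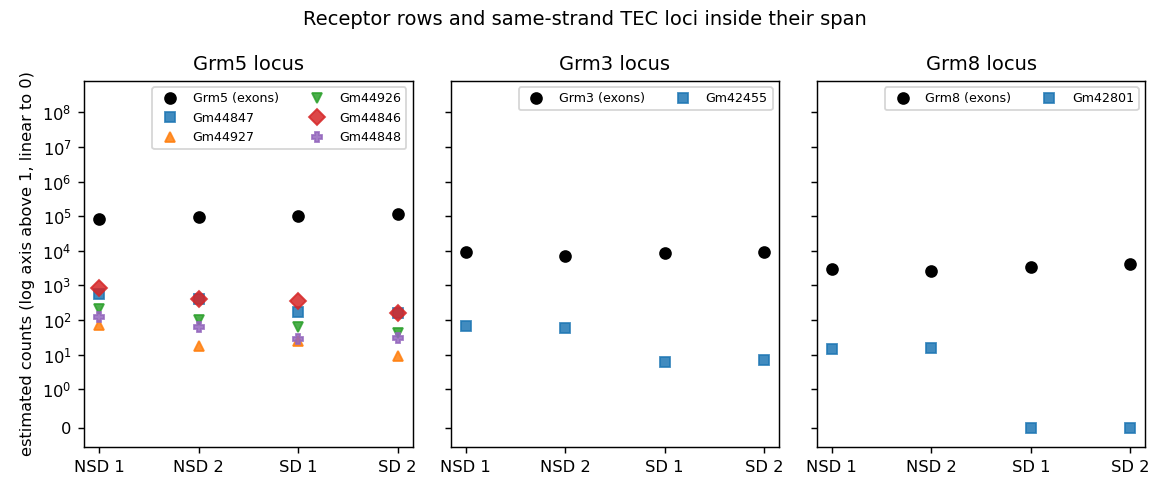
Estimated counts of Grm5, Grm3 and Grm8 (black circles) and of the same-strand TEC loci inside each, by library, on an axis that is logarithmic above 1 and linear down to 0. The receptor counts are not scaled to library totals and lie far above those of the loci, while Gm42455 goes from 69 and 57 to 6 and 7 counts and Gm42801 from 15 and 16 to 0.

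The 3 remaining rows lie on the strand opposite a receptor and share exon bases with it. Gm28111 shares 475 bases with Grm2, Gm49789 shares 135 with Grm4, and Gm20387 shares 600 with Grm7. They held at most 1.93% as many counts as the receptor they overlap. Of these, Gm20387 was tested and had a log2 fold change of -0.50 (s.e. 0.30, edgeR adjusted p = 0.427). The other two had too few counts for the test.

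The closest profiles to each receptor were found by the Euclidean distance between log2 CPM values, centred on each gene's mean over the 4 libraries, among the 22338 genes tested. These were Rgma for Grm4 (distance 0.0169), St18 for Grm7 (0.0145), Nfil3 for Grm8 (0.0171), Mfsd6 for Grm2 (0.00681), Jam2 for Grm3 (0.00949) and the pseudogene Ldhb-ps for Grm5 (0.00623). Between 126 and 531 genes lay within 0.1 of each receptor, so that with 4 libraries the nearest gene is 1 of many.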

How the data were processed

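The deposited table holds estimated counts per gene. The authors trimmed low-quality 3' bases, aligned the reads with STAR 2.7.8a and assigned them in Partek Flow with its expectation-maximization model to Ensembl release 110 on mm39 (GRCm39), without normalization. Whether the counting used strand is not given in the sources used here, so counts of overlapping genes on opposite strands are uncertain. Gene positions are those of the table, given 1-based.

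Estimated counts were rounded to whole numbers, and the 22338 genes that exceeded 5 counts in each library were tested in R 4.3.3 using edgeR 4.0.16 (TMM scaling, quasi-likelihood fit on condition alone, Benjamini-Hochberg adjustment over all genes tested). The standard error is the log2 fold change divided by the square root of its F statistic. Of 8.38 total degrees of freedom 6.38 came from the variance shared over genes. Standard errors, intervals and p-values of edgeR thus rest in part on other genes. Genes were called at adjusted p under 0.05 with more than 1.2-fold change, the thresholds of the study, which used DESeq2. Log2 CPM per library carried a prior count of 2. Exon lengths came from GENCODE M39 on the same build, a later release than the one counted on, and cover 27962 rows.

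Library totals ran from 153511705 to 195910235 counts, so counting error is small for the receptors and the number of libraries, 2 per group, limits the precision. Libraries of a group differed by more than counting noise (chi-square per degree of freedom 92.3 in NSD, 52.2 in SD). The limit from a count of 0 covers counting error only. The batch number of the labels equals the replicate number, so batches pair the NSD and SD libraries. Across genes, the deviations from the group mean correlated at 0.178 between libraries of the same batch, and a fit with this block is an alternative. The others were DESeq2 1.42.0, edgeR with the size factors of DESeq2, no count minimum, filterByExpr, protein-coding genes only, no fold threshold, another gene length and each library left out in turn.

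The 6 receptors, the partner and marker lists and the tests were chosen with earlier results of these data known. By rule, named are all receptors, the partner genes called without the block, 8 partners set by name, the most abundant row in each receptor's span, the most abundant marker of each list, the highest and lowest ionotropic subunit and the nearest profile to each receptor. Other genes were named outside this rule, with their values known. These are further markers, ionotropic subunits and effectors of long-term depression, Grk3, Rgs14 and further rows within receptor spans such as Gm44847. Both tools were tested on simulated data.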

Additional observations from a re-analysis of the deposited data

How the results depend on the processing

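Of the 6 receptors, 0 were called under the 10 refits and with no fold threshold, and 3 passed with the replicate block and no fold threshold, added after seeing the data. Without the block, dropping the fold threshold left the same 692 genes called over all genes, so that setting changed no call. Grm2, Grm4, Grm7 and Grm8 kept their direction in all 10 refits, while with a library left out the log2 fold change of Grm5 ran from -0.0053 (without NSD library 1) to 0.24 and that of Grm3 from -0.17 to 0.12 (without NSD library 1). That of Gnaq was 0.021 with DESeq2 and with its size factors in edgeR, 0.027 with no minimum count, 0.0050 with filterByExpr, and from -0.030 to 0.059 with a library left out, above 0 without NSD library 2, SD library 1 or SD library 2. The cause was not tested. Over all genes 692 were called, 2559 with the replicate block (3086 with no fold threshold), 1936 with DESeq2, 130 with no minimum count, 1 with filterByExpr, 90 with protein-coding genes only and 202 to 2247 with a library left out. The partner list went from 1 call to 5 with the replicate block (7 with no fold threshold), 4 with DESeq2, 0 with filterByExpr and 1 to 3 with a library left out. Ionotropic subunits had 2 calls with the block, 0 with no minimum count, filterByExpr or protein-coding genes only, and 0 to 1 with a library left out. The marker lists had 7 with the block, 6 with DESeq2, 0 with no minimum count, filterByExpr or protein-coding genes only, and 0 to 5 with a library left out. Rows within receptor spans had 5 with the block, 5 with DESeq2, 1 with no minimum count, 0 with filterByExpr or among protein-coding genes only, which leaves these rows out, and 0 (without NSD library 1) to 6 (without SD library 1) with a library left out. Per kilobase of the longest transcript Grm5 was at 65.3 CPM, Grm3 at 8.76, Grm4 at 9.82, Grm7 at 14.5 and Grm8 at 3.83, and with a library left out Grm7 ran from 10.1 to 10.7 per kilobase of exon. Leaving out a library leaves 1 in its group, which is then assumed to vary like the other group. With 2 libraries per group, differences under 1.2-fold were close to the limit of what could be resolved.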
